A study of Homo sapiens with 12 samples.

Results

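The 42 genes described here act on long-chain fatty acids in human cells, in uptake and intracellular binding, synthesis, elongation and desaturation, assembly into triglyceride, export, storage in lipid droplets, activation to acyl-CoA and oxidation, together with the peroxisome proliferator-activated receptors (PPARs) that regulate these steps and a coactivator of them. They were chosen by name from textbook pathways and looked up by gene symbol in read counts of 12 RNA-seq libraries. Of the 57820 genes in the count tables, 41 matched a member. ACACA was not matched, so its RNA level is not analysed here. THRSP, a lipogenic regulator, held at most 2 counts in any library and was removed by the filter on low counts, so 40 members were tested.

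RNA came from PLC/PRF/5, a human hepatoma line of epithelial cells, in 4 KO_RES libraries, 4 KO libraries and 4 control libraries. KO cells carry a knockout of HKDC1, which encodes a hexokinase domain protein related to the enzymes that phosphorylate glucose. KO_RES cells are knockout cells to which HKDC1 was returned, and control cells are labelled WT. The comparison addresses what HKDC1 does in liver cancer cells, by removing it and putting it back. The sample names divide the KO and KO_RES libraries over 2 lines with 2 libraries per line and group, so KO 1_2 is the library numbered 2 of line 1. The labels do not say whether a line is a single clone, how the gene was edited, or how HKDC1 was returned. They do not state separate cultures either, so the spread that the p-values measure is that of these libraries and could be technical.

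Hepatocytes take up fatty acids from blood, bind them to small carrier proteins and activate them to acyl-CoA. They also make palmitate from citrate, elongate and desaturate it, and join acyl chains to glycerol to form triglyceride, which is stored in droplets or loaded onto apolipoprotein B for export. In the opposite direction, lipases release fatty acids from droplets, carnitine carries them into mitochondria and a chain of dehydrogenases, hydratases and thiolases shortens them. PPARA, PPARG and their coactivator PPARGC1A switch many of these genes at the level of transcription.

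Libraries held between 36075411 and 60154638 counts over genes in KO_RES, between 42609910 and 68040103 in KO and between 57333288 and 71853616 in control. A count of 3 then corresponds to between 0.0408 and 0.0849 CPM (read counts relative to library size, scaled with TMM factors), and this floor covers counting error only. All 9 hepatocyte markers checked were detected. Their summed level was 2508 to 6712 CPM in KO_RES, 3097 to 5722 CPM in KO, 22126 and 21467 CPM in controls 1 and 2, and 6078 and 5472 CPM in controls 3 and 4. Controls 1 and 2 thus stood apart from controls 3 and 4, and each call against all 4 controls is given below with any pair of controls, 1 and 2 or 3 and 4, against which it missed the threshold. Blood cell markers summed to at most 0.323 CPM and endothelial markers to at most 2.02 CPM in any library, and fibroblast markers to at most 10.7 CPM. In bulk samples, fewer cells of a type and less RNA per cell cannot be told apart. HKDC1 itself stood at 1237, 1546, 507 and 626 CPM in the KO_RES libraries, 153, 147, 91.2 and 49.3 CPM in the KO libraries and 157, 154, 183 and 124 CPM in the controls. HKDC1 mRNA was therefore lower than control in KO line 2 (log2 fold change -1.14, SE 0.25, adjusted p = 0.0161), while KO line 1 was at -0.05 (SE 0.23, adjusted p = 0.92), so the knockout label of line 1 could not be checked from mRNA. The line 2 call rested on 2 libraries: without KO 2_2 it was lost (-0.76, adjusted p = 0.124), and without KO 2_1 the value was -1.64 (adjusted p = 0.0119). The genotype field of 4 libraries (KO_RES 1_1, KO_RES 2_1, KO 1_2 and KO 2_2) contradicts their sample names, and the sample names were followed here; HKDC1 was above every control in each library named KO_RES.

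Against control, the fatty acid genes changed in different ways in the KO lines. The shared part was a lower level of DGAT1, which fell in each line, and of the fatty acid binding protein FABP1, which fell in each line by different amounts. In line 2 both calls were lost when either KO library of that line was left out. The line 2 call of FABP1 was also lost against controls 3 and 4 alone (-1.69, adjusted p = 0.118). KO line 1 had higher PPARGC1A, PPARG, ACSL3 and ETFA, and KO line 2 had none of the 40 members called higher. With both lines pooled in 1 group, 4 of 40 members were called at an adjusted p under 0.05 in edgeR's quasi-likelihood test, all lower (DGAT1, CD36, ETFB and ACADVL), beside 6.28% of all genes called in either direction and 3.41% called lower. In a fit with each line as its own group, KO line 1 had 11 of 40 members called, 4 higher and 7 lower, beside 18.1% of all genes in either direction, 8.36% higher and 9.74% lower. KO line 2 had 5 of 40 called, all lower, beside 5.24% of all genes called lower and 4.79% called higher. DESeq2 called 6 of 40 in pooled KO, 15 in line 1 and 9 in line 2, beside 10.4%, 20.7% and 14.1% of all genes, and averaging both lines in the fit by line called 10 of 40 for KO, beside 16.1%. The members' shares were not tested against those of all genes. The pooled fit and the SDs given below take each group as 4 replicates, with no term for line or pair of controls. The median log2 fold change of the 40 members was -0.17 in pooled KO, beside 0.01 over all genes tested, with 25 members negative and 15 positive. It was -0.08 in KO line 1 beside -0.02 over all genes, and -0.07 in KO line 2 beside 0.00.

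**Figure D1:**
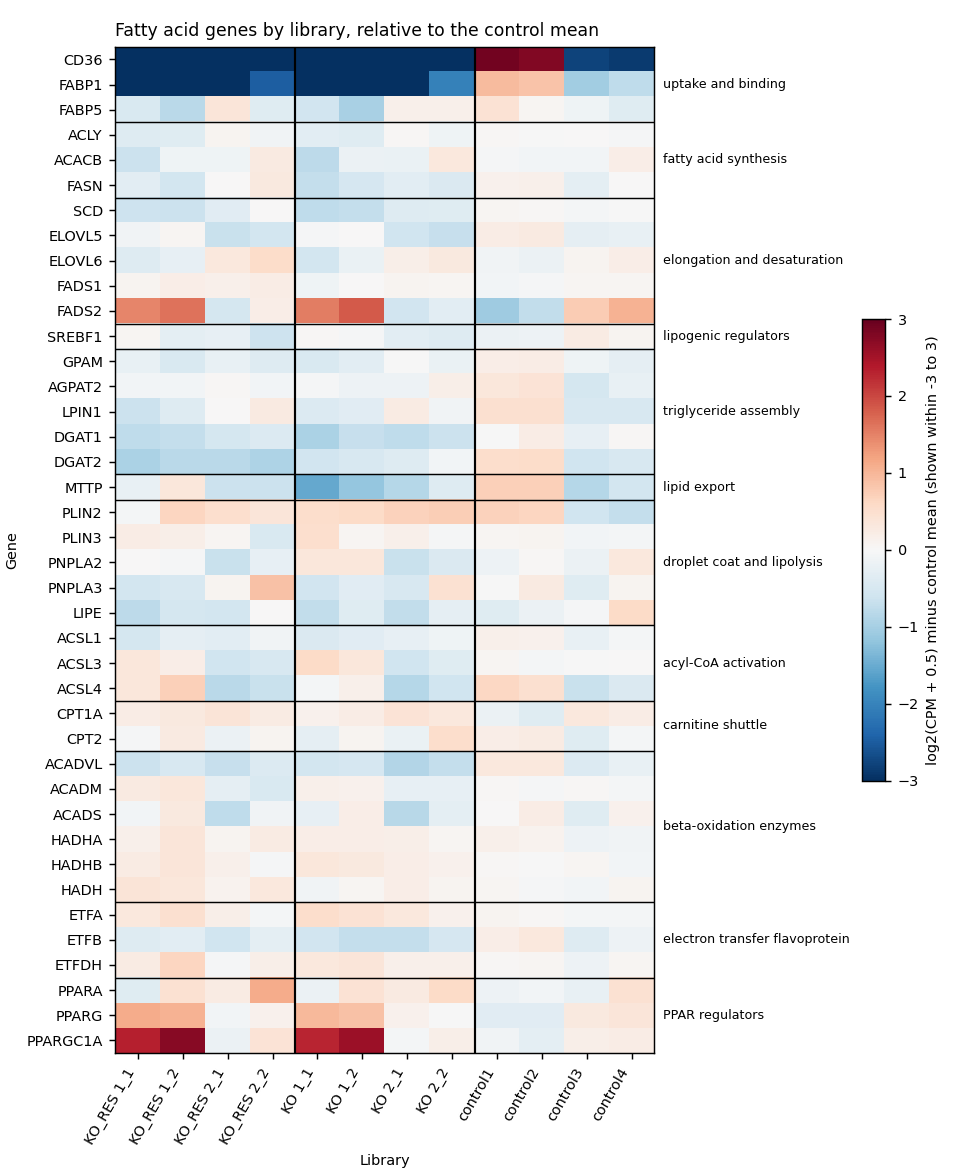
Heat map of the 40 tested members (rows, grouped by role) in 12 libraries (columns: 4 KO_RES, 4 KO, 4 control), as log2(CPM + 0.5) minus the mean of the 4 controls, with colours limited to -3 and 3. CD36 and FABP1 are the deepest blue rows in KO_RES and KO, PPARGC1A is red in line 1 of both groups, and controls 1 and 2 differ from controls 3 and 4 in CD36.

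Uptake and binding proteins held the largest log2 fold changes of the 40 members in pooled KO. CD36 (ENSG00000135218.13, chromosome 7), the scavenger receptor that takes up long-chain fatty acids at the plasma membrane, was at 0.0195, 0, 0.187 and 0.163 CPM in the KO_RES libraries (1_1, 1_2, 2_1 and 2_2). It was at 0.0799, 0.0702, 0.220 and 0.204 CPM in the KO libraries in the same order, and at 50.1, 46.2, 0.490 and 0.425 CPM in controls 1 to 4. All KO_RES and KO libraries lay below all controls, but controls 1 and 2 were 105 times controls 3 and 4, which themselves held 29 and 24 counts. CD36 fell in pooled KO (log2 fold change -7.35, SE 1.59, adjusted p = 0.0207). With controls 1 and 2 alone the value was -8.36 (adjusted p = 0.000213), and with controls 3 and 4 alone it was -1.64 (adjusted p = 0.395), no longer a call. CD36 levels in the controls followed the hepatocyte marker sum given above, and the part of that difference in the CD36 result was not tested. Leaving out control 1, control 2 or any 1 of the 4 KO libraries also ended the pooled call, with log2 fold changes between -6.75 and -7.60 and adjusted p between 0.0511 and 0.0665. In the fit by line CD36 was called in line 1 (-8.28, SE 2.36, adjusted p = 0.0352), a call lost without control 1, control 2, KO 1_1 or KO 1_2 (adjusted p at most 0.211), and was at -6.83 (adjusted p = 0.0663) in line 2.

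FABP1 (ENSG00000163586.5, chromosome 2) encodes the liver fatty acid binding protein, which carries fatty acids through the cytosol of hepatocytes. It was at 0.332, 0.821, 8.47 and 18.9 CPM in KO_RES, 0.926, 3.37, 9.67 and 26.1 CPM in KO and 209, 196, 51.6 and 63.4 CPM in control. No KO or KO_RES library reached the lowest control, both libraries of line 1 lay below both of line 2 in KO_RES and in KO, and controls 1 and 2 were 3.53 times controls 3 and 4. FABP1 fell by more in line 1 (-5.96, SE 0.96, adjusted p = 0.00234) than in line 2 (-2.86, SE 0.79, adjusted p = 0.0454), and the difference between the lines was itself called (line 2 minus line 1, 3.10, SE 0.89, adjusted p = 0.0467). Against controls 3 and 4 alone the fall in line 1 held (-4.78, adjusted p = 0.00195) and that in line 2 did not (-1.69, adjusted p = 0.118). In the pooled fit FABP1 was not called (-3.69, SE 1.22, adjusted p = 0.0979). The line 2 call and the line difference were each lost when any 1 KO library of the compared lines was left out, and the line 2 call also without control 1 or control 2 (adjusted p at most 0.317). FABP5, the epidermal fatty acid binding protein, ranged from 26.4 to 59.8 CPM in KO_RES, from 23.4 to 51.7 CPM in KO and from 35.9 to 63.0 CPM in control, overlapping groups with no call. Its counts are uncertain, since 14 pseudogenes bear its name in GENCODE release 29.

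Promoters are shown for FABP1, MTTP and PLIN2, because these 3 members were each at least 2.51 times higher in controls 1 and 2 than in controls 3 and 4 and yet took different courses in the knockout lines. CD36 also passed that ratio, and its windows are not shown. The windows hold 250 bases before the gene's start, from RefSeq on GRCh38.p14, written 5′ to 3′ on the gene's strand, with the matches to short motifs in capitals. For FABP1 the window was chr2:88128063-88128312 on the minus strand, for MTTP, in the second window listed, chr4:99574574-99574823 on the plus strand, and for PLIN2 chr9:19127493-19127742 on the minus strand.
FABP1: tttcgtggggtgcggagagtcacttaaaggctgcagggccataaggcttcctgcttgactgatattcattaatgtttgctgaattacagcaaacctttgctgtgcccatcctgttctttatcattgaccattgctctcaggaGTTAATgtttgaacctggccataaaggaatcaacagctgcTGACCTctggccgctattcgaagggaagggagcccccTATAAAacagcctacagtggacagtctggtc
MTTP: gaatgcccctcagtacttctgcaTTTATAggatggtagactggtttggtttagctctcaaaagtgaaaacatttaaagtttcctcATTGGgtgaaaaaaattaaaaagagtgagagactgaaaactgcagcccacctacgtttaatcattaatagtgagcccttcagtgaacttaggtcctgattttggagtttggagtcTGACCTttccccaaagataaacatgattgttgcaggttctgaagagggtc
PLIN2: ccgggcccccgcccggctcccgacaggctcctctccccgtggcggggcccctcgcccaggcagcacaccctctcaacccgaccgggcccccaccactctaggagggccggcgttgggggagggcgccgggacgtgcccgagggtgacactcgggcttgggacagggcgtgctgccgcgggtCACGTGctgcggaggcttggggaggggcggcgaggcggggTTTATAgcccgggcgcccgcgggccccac
The FABP1 window held GTTAAT, part of the site bound by HNF1 factors, at 108 bases before the start, AGGTCA, the core element of nuclear receptor sites, those of the PPARs included, on the reverse strand (TGACCT) at 68 bases and TATAAA at 31 bases. The MTTP window held AGGTCA on the reverse strand at 50 bases, with CCAAT and TATAAA on the reverse strand further out. The first window listed for MTTP, not shown, held none of the motifs searched. The PLIN2 window held CACGTG, the E-box form bound by USF and MYC family factors, at 69 bases and TATAAA on the reverse strand at 29 bases. Both strands were searched for 9 motifs, and among 35116 promoter windows of this length 12.1% held AGGTCA, 10.7% TATAAA, 6.34% CACGTG, 6.23% GTTAAT and 32% CCAAT. The 36 members with a window had 64 windows, of which 8 held AGGTCA and 3 held CACGTG. These windows belonged to 6 members for AGGTCA and 3 for CACGTG. The counts take in THRSP, which was not tested, and ACACA, which was not matched in the read counts and held AGGTCA in its first window listed.

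Among the enzymes of synthesis and desaturation, levels were lower in KO than in control for FASN and SCD, with the calls in line 1. FASN (ENSG00000169710.6), the fatty acid synthase that builds palmitate, was at 805, 684, 999.6 and 1225 CPM in KO_RES, 610.5, 701, 803 and 736 CPM in KO and 1088, 1109.6, 815 and 1008 CPM in control. All 4 KO libraries were below all controls, whereas the KO_RES libraries overlapped them. FASN fell in line 1 (-0.62, SE 0.16, adjusted p = 0.0252) and was not called in line 2 (-0.39, adjusted p = 0.17), and the line 1 call was lost without control 1, control 2, KO 1_1 or KO 1_2 (adjusted p at most 0.201) and against controls 3 and 4 alone (-0.47, adjusted p = 0.0955). SCD (ENSG00000099194.5), the stearoyl-CoA desaturase that makes oleate, was at 913, 894, 1098 and 1408 CPM in KO_RES, 827, 852, 1069 and 1093 CPM in KO and 1450.0, 1425, 1333 and 1379.7 CPM in control. The controls lay within a narrow range, with a mean of 1397 ± 51.7 CPM (SD, n = 4), and every KO library was below it, while KO_RES 2_2 lay among the controls. SCD fell in line 1 (-0.74, SE 0.13, adjusted p = 0.00376), and that call held in all 12 alternatives. In line 2 SCD was not called (-0.37, adjusted p = 0.0982), and the lines did not differ by the test (0.37, adjusted p = 0.139).

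Of the elongases and the FADS desaturases, FADS2 and ELOVL6 were called between the lines and ELOVL5 against control in line 2. ELOVL5, an elongase of polyunsaturated chains, was at 222, 249, 150.4 and 163 CPM in KO_RES, 234, 244, 158 and 149 CPM in KO and 280.2, 288, 199 and 207 CPM in control. Line 2 was below all controls in both groups and line 1 was among them, and ELOVL5 fell in KO line 2 (-0.67, SE 0.17, adjusted p = 0.0296), a call that was lost without control 1, control 2, KO 2_1 or KO 2_2 (adjusted p at most 0.178) and against controls 3 and 4 alone (-0.41, adjusted p = 0.0685). FADS2 (ENSG00000134824.9), the delta-6 desaturase at the entry of polyunsaturated fatty acid synthesis, was at 50.7, 56.2, 12.3 and 20.7 CPM in KO_RES, 52.8, 65.6, 11.8 and 14.4 CPM in KO and 8.28, 10.6, 30.9 and 37.6 CPM in control. Line 1 was above every control, line 2 was among them, and controls 1 and 2 were at 0.275 times controls 3 and 4. FADS2 was lower in KO line 2 than in KO line 1 (-2.17, SE 0.63, adjusted p = 0.0478), and neither line was called against the 4 controls (1.44 (adjusted p = 0.073) in line 1 and -0.74 (adjusted p = 0.448) in line 2). In line 1 FADS2 rose against either pair alone (2.62 (adjusted p = 8.99e-05) against controls 1 and 2 and 0.79 (adjusted p = 0.0391) against controls 3 and 4). In line 2 the sign turned with the pair, at 0.46 (adjusted p = 0.227) against controls 1 and 2 and -1.39 (adjusted p = 0.00542) against controls 3 and 4. ELOVL6, which elongates palmitate to stearate, was at 62.8 and 68.1 CPM in KO line 2 and 37.9 and 48.9 CPM in KO line 1, with a difference of 0.60 (SE 0.17, adjusted p = 0.0412). The other members of these groups were not called, and FADS1, the delta-5 desaturase, had the smallest ratio of highest to lowest library among the 40 tested members, 1.26, at 509 ± 18.6 CPM in KO_RES, 458 ± 29.05 CPM in KO and 454 ± 21.5 CPM in control (SD, n = 4 each). ACLY, which splits citrate to acetyl-CoA, averaged 505 ± 66.9 CPM in KO and 572 ± 11.3 CPM in control, and its lowest adjusted p was 0.0558 in KO line 1, at a log2 fold change of -0.34. SREBF1, the transcription factor that drives lipogenic genes, was not called in any comparison, with log2 fold changes between -0.37 and -0.02.

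DGAT1 (ENSG00000185000.5), an acyltransferase that adds the last acyl chain of triglyceride, was lower in pooled KO, in each KO line and in KO_RES. It was at 17.3, 17.8, 20.1 and 21.9 CPM in KO_RES, 15.03, 17.98, 17.1 and 18.8 CPM in KO and 29.2, 34.2, 24.8 and 30.2 CPM in control. Every KO_RES and KO library was below every control. DGAT1 averaged 17.2 ± 1.62 CPM in KO and 29.6 ± 3.88 CPM in control (SD, n = 4 each), a ratio of 0.582, and its log2 fold change was -0.78 (SE 0.13, adjusted p = 0.00595). It fell in line 1 (-0.85, SE 0.14, adjusted p = 0.00312) and in line 2 (-0.72, SE 0.14, adjusted p = 0.0109), and the lines did not differ by the test (0.12, adjusted p = 0.691). The pooled call held without any 1 library, with adjusted p at most 0.0218, and missed the threshold against controls 3 and 4 alone (-0.68, adjusted p = 0.0585). Each line passed against that pair of controls (line 1 -0.73 (adjusted p = 0.00996), line 2 -0.62 (adjusted p = 0.0298)). The call in line 1 was lost without KO 1_1 (adjusted p = 0.0558) and that in line 2 without KO 2_1 or KO 2_2 (at most 0.132).

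DGAT2 (ENSG00000062282.10), the second enzyme of the same step and a protein with no sequence relation to DGAT1, was at 6.52, 7.31, 7.25 and 6.65 CPM in KO_RES, 8.70, 9.32, 9.89 and 12.4 CPM in KO and 19.2, 19.6, 8.53 and 9.22 CPM in control. The KO_RES libraries lay below all KO and all control libraries, and the KO libraries overlapped controls 3 and 4. DGAT2 was called lower in KO_RES against control (-1.03, SE 0.27, adjusted p = 0.0463) and not in KO (-0.49, adjusted p = 0.311). The KO_RES value was -1.50 (adjusted p = 0.00092) against controls 1 and 2 alone and -0.35 (adjusted p = 0.43), no longer a call, against controls 3 and 4 alone. The KO value was -0.97 (adjusted p = 0.00919) against controls 1 and 2 alone, a call, and 0.18 (adjusted p = 0.72) against controls 3 and 4 alone. GPAM, which adds the first acyl chain to glycerol phosphate, AGPAT2, which adds the second, and LPIN1, the phosphatase before the last step, had negative log2 fold changes in pooled KO of -0.25, -0.08 and -0.21, none called.

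MTTP (ENSG00000138823.8), which loads triglyceride onto apolipoprotein B, was at 80.9, 119.6, 59.9 and 60.5 CPM in KO_RES, 32.4, 42.03, 52.1 and 72.2 CPM in KO and 155, 155, 51.8 and 64.3 CPM in control. KO line 1 was below every control, KO_RES line 1 lay between the pairs of controls, and line 2 lay near controls 3 and 4 in both groups. MTTP fell in KO line 1 (-1.52, SE 0.44, adjusted p = 0.0388), with -2.08 (adjusted p = 0.00021) against controls 1 and 2 alone and -0.64 (adjusted p = 0.0878) against controls 3 and 4 alone. Leaving out control 1, control 2, KO 1_1 or KO 1_2 also ended the call (adjusted p at most 0.245). In line 2 the log2 fold change was -0.78 (adjusted p = 0.296). Without the filter on low counts, line 2 had 12 of the 41 matched members called, MTTP among them, beside 8.72% of all genes. The p-values of that fit have a limit, given below for MTTP in KO_RES line 1.

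**Figure D2:**
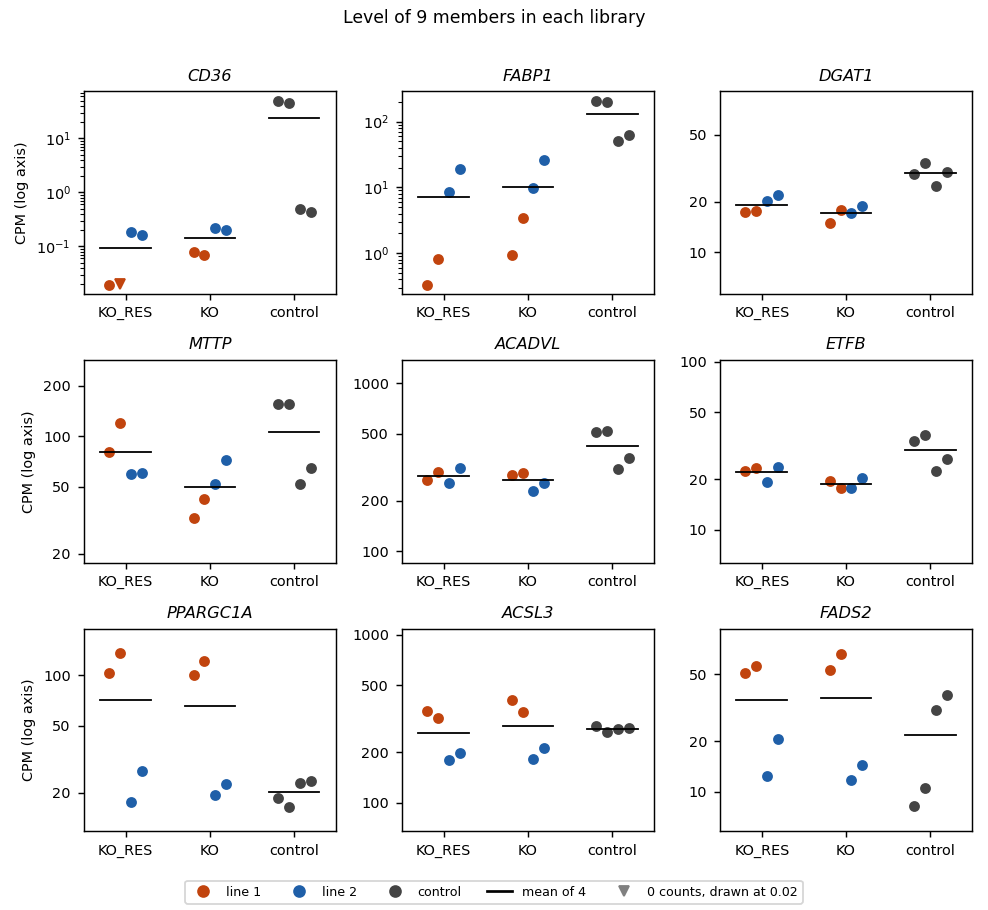
Level of 9 members in each library, in CPM on log axes, for KO_RES, KO and control. Points are libraries coloured by line, horizontal bars are means of 4, and the triangle marks a library with 0 counts. DGAT1 lies below every control in all KO_RES and KO libraries, while PPARGC1A, ACSL3 and FADS2 are higher in line 1 than in line 2.

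Proteins of the droplet surface and of lipolysis showed no call in pooled KO. PLIN2, the main coat protein of hepatocyte droplets, was at 77.9, 126, 113 and 103 CPM in KO_RES, 116, 119.7, 129 and 135 CPM in KO and 129.9, 125, 53.1 and 48.4 CPM in control. All KO_RES and KO libraries lay above controls 3 and 4, and the KO libraries were close to controls 1 and 2. PLIN2 was not called against the 4 controls (0.49, adjusted p = 0.371), was at -0.05 (adjusted p = 0.909) against controls 1 and 2 alone and rose against controls 3 and 4 alone (1.30, adjusted p = 0.0107). It was then the 1 member called in pooled KO, beside 1.67% of all genes, and was also higher in KO_RES (1.05, adjusted p = 0.022), in KO line 1 (1.22, adjusted p = 0.00348) and in KO line 2 (1.38, adjusted p = 0.00313). PNPLA2 (ENSG00000177666.11), the lipase that starts triglyceride breakdown, was at 48.1, 46.2, 29.6 and 40.2 CPM in KO_RES, 60.6, 60.04, 29.8 and 35.4 CPM in KO and 42.5, 48.98, 41.9 and 58.99 CPM in control. KO line 1 stood above all controls and KO line 2 below them, and line 2 was lower than line 1 (-0.89, SE 0.19, adjusted p = 0.0137). Neither line was called against control (line 1 0.33 (adjusted p = 0.193), line 2 -0.56 (adjusted p = 0.0608)). PLIN3, another droplet coat protein, averaged 109.97 ± 21.3 CPM in KO_RES, 123 ± 20.9 CPM in KO and 108 ± 6.14 CPM in control (SD, n = 4 each). LIPE, the hormone-sensitive lipase, averaged 5.07 ± 1.39 CPM in KO_RES, 4.76 ± 0.919 CPM in KO and 7.23 ± 2.32 CPM in control. PNPLA3, a droplet protein related to PNPLA2, averaged 3.53 ± 2.04, 2.82 ± 1.21 and 3.30 ± 0.672 CPM in KO_RES, KO and control, and none of these 3 genes was called.

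Among the acyl-CoA synthetases, which activate fatty acids, ACSL3 (ENSG00000123983.9) changed in opposite directions in the lines. It was at 350.1, 318, 181 and 197 CPM in KO_RES, 407, 349, 181 and 213 CPM in KO and 286, 264, 274 and 279 CPM in control. Line 1 was above and line 2 below every control, in KO as in KO_RES. ACSL3 rose in KO line 1 (0.46, SE 0.11, adjusted p = 0.0184) and fell in KO line 2 (-0.48, SE 0.12, adjusted p = 0.0259), and the difference between the lines (-0.94, SE 0.13, adjusted p = 0.00152) held in all 8 alternatives. In pooled KO its log2 fold change was 0.06 (adjusted p = 0.922). The line 1 call was lost without control 2 or KO 1_1 (adjusted p at most 0.234) and the line 2 call without control 1, KO 2_1 or KO 2_2 (at most 0.279). The values were as large against controls 3 and 4 alone and just missed the threshold (0.46 (adjusted p = 0.0533) in line 1 and -0.49 (adjusted p = 0.0573) in line 2). ACSL4, which prefers arachidonate, was at 1196, 1546, 539.6 and 592 CPM in KO_RES, 902, 1054, 523 and 620.3 CPM in KO and 1453, 1318, 593 and 701 CPM in control, so controls 3 and 4 and line 2 stood low and controls 1 and 2 and line 1 stood high, with no call against all controls. ACSL1 averaged 20.6 ± 1.92 CPM in KO and 25.2 ± 3.13 CPM in control and was not called.

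In the carnitine shuttle, CPT1A, the rate-limiting step of mitochondrial import, was at 258, 269, 289 and 260.2 CPM in KO_RES, 243, 259.999, 294 and 276 CPM in KO and 194, 172, 275 and 259 CPM in control. It overlapped controls 3 and 4 and lay above controls 1 and 2, and its log2 fold change in pooled KO was 0.53 (adjusted p = 0.0303) against controls 1 and 2 and 0.00 (adjusted p = 0.995) against controls 3 and 4. CPT2, the inner membrane partner, was not called in any comparison.

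Of the oxidation enzymes, ACADVL (ENSG00000072778.15), the very-long-chain acyl-CoA dehydrogenase of the first step, was lower in KO. It was at 265, 295, 254 and 310.4 CPM in KO_RES, 283, 291, 227 and 254 CPM in KO and 513, 518, 309 and 357 CPM in control. All KO libraries were below all controls, and KO_RES 2_2 reached the level of control 3. ACADVL fell in pooled KO (-0.69, SE 0.17, adjusted p = 0.0353) and in line 2 (-0.82, SE 0.21, adjusted p = 0.0352), and was not called in line 1 (-0.57, adjusted p = 0.0889), while the lines did not differ by the test (-0.26, adjusted p = 0.553). Controls 1 and 2 were 1.55 times controls 3 and 4, and the pooled log2 fold change was -0.99 (adjusted p = 0.00217) against controls 1 and 2 and -0.34 (adjusted p = 0.301) against controls 3 and 4. Leaving out control 1, control 2 or any 1 KO library ended the pooled call, with log2 fold changes between -0.59 and -0.74 and adjusted p at most 0.102. The line 2 call was lost without control 1, control 2, KO 2_1 or KO 2_2 (at most 0.271) and against controls 3 and 4 alone (-0.48, adjusted p = 0.072). The medium-chain dehydrogenase ACADM was at 123, 129.99, 85.2 and 75.1 CPM in KO_RES, 114, 113, 86.2 and 86.6 CPM in KO and 106, 101, 105 and 98.8 CPM in control. KO line 2 was below and KO line 1 above every control, by small amounts, and line 2 was lower than line 1 (-0.39, SE 0.11, adjusted p = 0.0401). ACADS, the short-chain dehydrogenase, HADHA and HADHB, the subunits of the trifunctional protein, and HADH, a hydroxyacyl-CoA dehydrogenase, were not called in any comparison. Their log2 fold changes in pooled KO were -0.28, 0.15, 0.24 and 0.06. HADHA and HADHB lie head to head on chromosome 2, where their promoter windows overlap by 194 bases on opposite strands, and HADHB came nearest to a call, at 0.32 (SE 0.10, adjusted p = 0.0511) in line 1.

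The electron transfer flavoprotein passes electrons from these dehydrogenases to the respiratory chain, and in line 1 its subunits changed in opposite directions. ETFA, the alpha subunit, was at 405, 458, 369 and 315 CPM in KO_RES, 467, 437, 404 and 354 CPM in KO and 344, 335, 314 and 312 CPM in control. ETFB, the beta subunit, was at 22.4, 23.4, 19.2 and 23.8 CPM in KO_RES, 19.5, 17.8, 17.7 and 20.4 CPM in KO and 33.7, 36.8, 22.4 and 26.4 CPM in control. All KO libraries were above all controls in ETFA and below all controls in ETFB, and the KO_RES libraries overlapped the controls in both. ETFB fell in pooled KO (-0.66, SE 0.15, adjusted p = 0.027) and in line 1 (-0.68, SE 0.19, adjusted p = 0.0353). ETFA rose in line 1 (0.47, SE 0.12, adjusted p = 0.0194) and was at 0.35 (adjusted p = 0.13) in pooled KO. For ETFB the log2 fold change in pooled KO was -0.93 (adjusted p = 0.00294) against controls 1 and 2 alone and -0.38 (adjusted p = 0.24) against controls 3 and 4 alone, and the line 1 call too was lost against controls 3 and 4 (-0.39, adjusted p = 0.12). The line 1 call of ETFA was lost against controls 1 and 2 alone (0.39, adjusted p = 0.0745). The pooled ETFB call was lost without control 1, control 2, KO 1_1, KO 1_2 or KO 2_1 (log2 fold changes between -0.56 and -0.68, adjusted p at most 0.0823), the line 1 ETFB call without control 1, control 2 or either KO library of line 1 (at most 0.210), and the ETFA call without control 4 or either KO library of line 1 (at most 0.184). ETFDH, the oxidoreductase that receives the electrons, averaged 52.8 ± 4.18 CPM in KO and 44.3 ± 2.99 CPM in control and was not called.

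Among the PPARs and their coactivator, PPARGC1A and PPARG were higher in line 1. PPARGC1A (ENSG00000109819.4, chromosome 4), the coactivator known for mitochondrial and oxidative genes, was at 103, 136, 17.7 and 26.9 CPM in KO_RES, 101, 121, 19.4 and 22.6 CPM in KO and 18.6, 16.4, 22.9 and 23.5 CPM in control. Both KO and both KO_RES libraries of line 1 stood far above every control, and line 2 lay near the controls. The KO line 1 mean was 5.45 times the control mean (log2 fold change 2.44, SE 0.20, adjusted p = 4.33e-05), and line 2 had 0.05 (adjusted p = 0.921). The difference between the lines was -2.40 (SE 0.25, adjusted p = 0.000285), and both calls held in all alternatives run (12 for line 1 and 8 for the difference). PPARG, known as the adipogenic receptor, was at 60.8, 58.7, 26.5 and 30.8 CPM in KO_RES, 55.5, 52.2, 30.7 and 27.7 CPM in KO and 22.2, 22.1, 34.4 and 36.5 CPM in control. It rose in line 1 (0.90, SE 0.20, adjusted p = 0.0114), was at 0.02 (adjusted p = 0.967) in line 2 and differed between the lines (-0.88, SE 0.24, adjusted p = 0.0379). The line 1 call held against either pair of controls and was lost without KO 1_1 or KO 1_2 (adjusted p at most 0.0948). In KO line 2 the sign of PPARG turned with the pair. It was at 0.38 (adjusted p = 0.0493), a call, against controls 1 and 2 alone and at -0.29 (adjusted p = 0.192) against controls 3 and 4 alone. PPARA, the main PPAR of hepatocytes, averaged 78.2 ± 32.9 CPM in KO_RES, 70.3 ± 14.6 CPM in KO and 57.9 ± 13.4 CPM in control, and was not called.

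The lines differed from each other in 8 of 40 members. KO line 2 was higher than KO line 1 in 2, FABP1 and ELOVL6, beside 6.26% of all genes higher, and lower in 6, PPARGC1A, FADS2, ACSL3, PNPLA2, PPARG and ACADM, beside 5.72% of all genes lower. The median difference over the 40 members was 0.13 (line 2 minus line 1), beside 0.03 over all genes tested. PPARGC1A and ACSL3 kept their calls without any 1 KO library, and in each of those 4 fits these 2 were the members called.

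**Figure D3:**
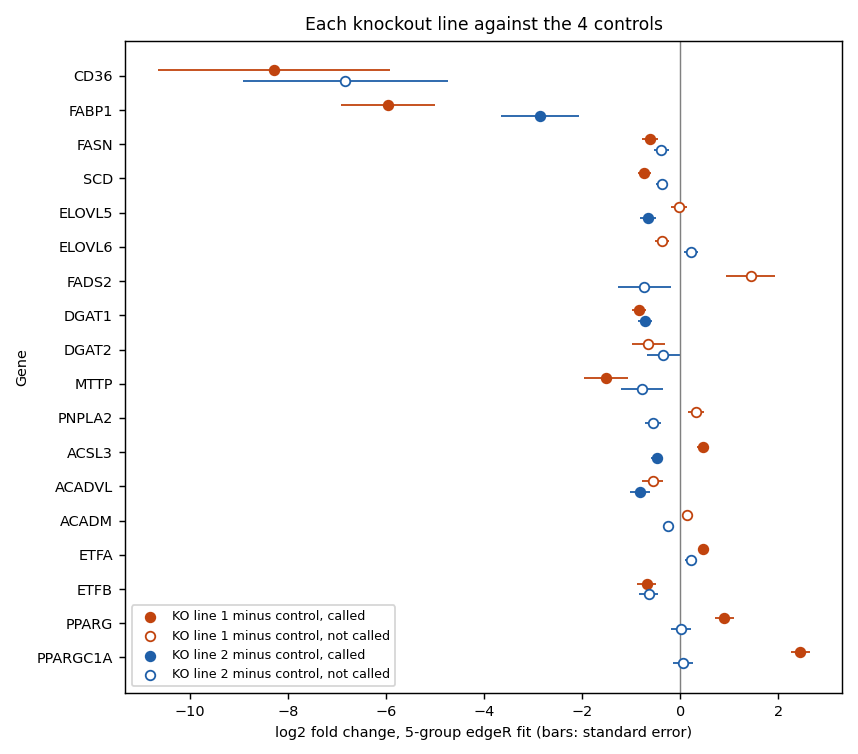
Log2 fold change with standard error of KO line 1 and KO line 2 against the 4 controls, from the fit with each line as a group, for the 18 members called in at least 1 comparison. Filled points were called. FABP1 and DGAT1 are filled and negative in both lines, and ACSL3 is filled on opposite sides of 0.

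Which members were called against control depended on which controls were used. Against controls 1 and 2 alone, 7 of 40 members were called in pooled KO, beside 7.32% of all genes, with CPT1A higher and CD36, DGAT1, DGAT2, MTTP, ACADVL and ETFB lower. Against controls 3 and 4 alone 1 was called, PLIN2. In KO line 1 the counts were 19 of 40 members against controls 1 and 2, beside 24.3% of all genes, and 11 of 40 against controls 3 and 4, beside 17.6%. In KO line 2 they were 13 of 40, beside 19.0%, and 3 of 40, beside 10.6%. Of the members called against all controls, CD36, FABP1, SCD, DGAT1, PPARG and PPARGC1A passed against each pair in line 1, and DGAT1 did in line 2.

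**Figure D4:**
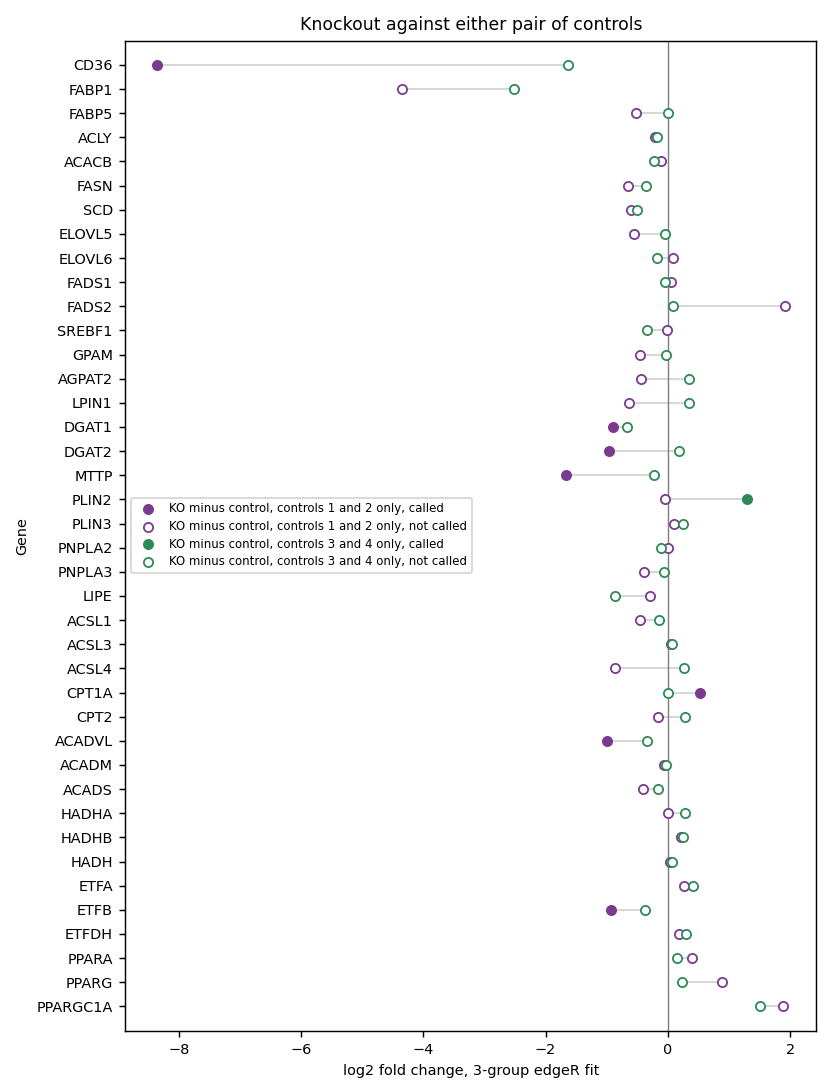
Log2 fold change of pooled KO against controls 1 and 2 alone and against controls 3 and 4 alone, for the 40 tested members. Filled points were called. CD36, MTTP and DGAT2 lie far lower against controls 1 and 2, PLIN2 is near 0 against that pair and at 1.30 against the other, and DGAT1 is negative against both.

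Returning HKDC1 to the knockout cells gave no called change among the fatty acid genes. For KO_RES against KO, no member was called in edgeR's quasi-likelihood test, beside 0% of all genes, and 1 member had an unadjusted p under 0.05, HADH (log2 fold change 0.23, SE 0.10). DESeq2 also called no member, with 1 at an unadjusted p under 0.05, beside 0.0129% of all genes called. With line and number as a replicate block, 8 members had an unadjusted p under 0.05 and none was called, beside 0.0437% of all genes, and the smallest adjusted p was that of DGAT2, -0.53 (adjusted p = 0.176). CD36 did not pass the filter on low counts in that fit. The median log2 fold change of the 40 members was 0.02, beside 0.00 over all genes, and the single values lay between -0.54 and 0.69. A missed threshold does not show that levels were equal. In data simulated with 1 spread common to all genes, the test found 9 of 100 genes changed by 1 on the log2 scale. It found 96 of 100 changed by 2. The simulation held no difference between the lines, so these shares do not give the recovery in the real libraries. There, the filtered edgeR fit of 3 groups missed HKDC1 at a larger change than either. HKDC1 was called by DESeq2 (3.15, adjusted p = 1.7e-10) and with the replicate block (3.15, adjusted p = 0.00347), and neither fit called a member.

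In each pair of KO_RES and KO libraries with the same line and number, the difference was taken on the log2(CPM + 0.5) scale, which understates changes of low genes. SCD, FADS1, ACADS and ETFB were higher in KO_RES in all 4 pairs, 4 of 40 members beside 11.0% of all genes. CD36, FABP1, DGAT2 and ACSL3 were lower in KO_RES in all 4 pairs, 4 of 40 members beside 13.2% of all genes. CD36 held only 1, 0, 10 and 11 counts in KO_RES and 5, 3, 12 and 15 counts in KO. Counting error could give its order in these pairs. For DGAT2 the differences were -0.39, -0.33, -0.42 and -0.85 in pairs 1_1, 1_2, 2_1 and 2_2, and for ETFB they were 0.20, 0.39, 0.11 and 0.22. FABP1, which had fallen in KO, was lower still in KO_RES, by -0.78 and -1.55 in line 1 and -0.18 and -0.45 in line 2.

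Within the lines, KO_RES line 1 against KO line 1 had 0 of 40 members called, beside 0.195% of all genes, and KO_RES line 2 against KO line 2 had 0 of 40, beside 0.00486%. DESeq2 called none in either line, beside 1.02% of all genes in line 1 and 0.00258% in line 2, and unadjusted p values under 0.05 were found in edgeR for 2 members in line 1 (MTTP and HADH) and 1 in line 2 (FASN). The largest of these differences was in MTTP, which was at 80.9 and 119.6 CPM in KO_RES line 1 and 32.4 and 42.03 CPM in KO line 1, 2.69 times by their means (log2 fold change 1.43, SE 0.49, adjusted p = 0.527). Without the filter on low counts MTTP passed (1.44, adjusted p = 9.65e-11), as did FABP1 (-1.92, adjusted p = 6.98e-11), beside 1.41% of all genes. The fold change of MTTP hardly moved, so leaving out the filter changed its p-value and not its effect. HKDC1 went to an adjusted p of 1.34e-47 in that fit, which used TMM scaling, beside 0.00417 with the filter and RLE scaling. These values of HKDC1 therefore differ in scaling as well as in the filter. With 2 libraries per group, these very small p-values do not measure the strength of a change. The reason for the shift was not tested. In line 2, MTTP was at 59.9 and 60.5 CPM in KO_RES and 52.1 and 72.2 CPM in KO. FASN was at 999.6 and 1225 CPM in KO_RES line 2 and 803 and 736 CPM in KO line 2 (0.53 (SE 0.18), unadjusted p = 0.0161).

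**Figure D5:**
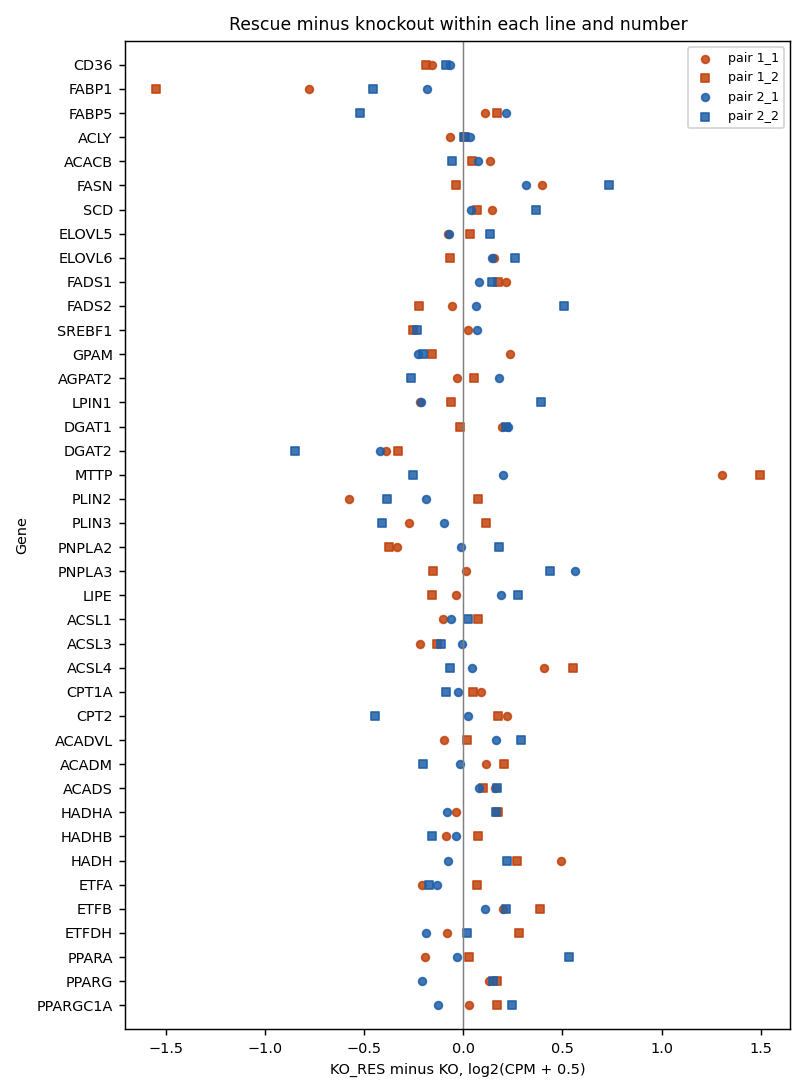
KO_RES minus KO on the log2(CPM + 0.5) scale for the 40 tested members, in each of the 4 pairs of libraries with the same line and number. MTTP stands at 1.31 and 1.50 in line 1 and at 0.20 and -0.25 in line 2, and DGAT2 is below 0 in every pair.

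Against control, KO_RES had 3 of 40 members called, all lower (DGAT1 at -0.62 (SE 0.13, adjusted p = 0.0184), CD36 at -7.89 (SE 1.65, adjusted p = 0.0187) and DGAT2 at -1.03 (SE 0.27, adjusted p = 0.0463)), beside 5.47% of all genes in either direction and 3.29% lower. The median of the 40 members was -0.11, beside 0.02 over all genes. The KO_RES and KO comparisons share the 4 control libraries, so their values against control are not independent. The DGAT1 call was lost without control 2, KO_RES 1_1 or KO_RES 1_2 (adjusted p at most 0.0613), the CD36 call without KO_RES 1_1 or KO_RES 1_2 (at most 0.0608), and the DGAT2 call without control 1, control 2 or any 1 KO_RES library (at most 0.140). Against controls 3 and 4 alone DGAT1 was at -0.51 (adjusted p = 0.141) and CD36 at -2.20 (adjusted p = 0.263), neither called. DESeq2 called 5 of 40, beside 8.94% of all genes, and the mean of both lines 8 of 40, beside 15.4%. Against controls 1 and 2 alone 7 members were called, beside 7.09% of all genes, and against controls 3 and 4 alone PLIN2 was, beside 1.91%.

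Over all 8 comparisons, 18 members were called at least once and 22 were tested and never called. Among those 22, FABP5 had the widest span of log2 fold changes (-0.80 to 0.93), and HADHB the smallest adjusted p, 0.0511. The span was smallest for FADS1 (-0.06 to 0.20) and for AGPAT2 (-0.15 to 0.13).

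Other genes of the same pathways were looked at from a list of 127 that are no members. In pooled KO, 11 of 107 tested were called, 1 higher and 10 lower, beside 6.28% of all genes, with a median log2 fold change of -0.12, beside 0.01 over all genes. In KO line 1, 26 of 111 were called, beside 18.1% of all genes, with 9 higher and 17 lower and a median of -0.10, beside -0.02. In KO line 2 the 15 of 111 called were 1 higher, beside 4.79% of all genes, and 14 lower, beside 5.24%, with a median of -0.18, beside 0.00. Among the enzymes of peroxisomal oxidation, which shortens very long chains, the oxidase ACOX3 fell in both lines (-0.56 (adjusted p = 0.0139) in line 1 and -0.61 (adjusted p = 0.0145) in line 2). ECHS1, the mitochondrial enoyl-CoA hydratase, fell in line 1 (-0.51, adjusted p = 0.0176) and line 2 (-0.54, adjusted p = 0.0212), and was at 77.2, 76.8, 76.9 and 73.6 CPM in KO and 114, 112, 112 and 101 CPM in control. Neither gene passed against controls 3 and 4 alone, with ACOX3 at -0.46 (adjusted p = 0.0596) in line 1 and -0.52 (adjusted p = 0.0509) in line 2 and ECHS1 at -0.46 (adjusted p = 0.0758) in line 1 and -0.50 (adjusted p = 0.077) in line 2. The line 1 calls were lost without KO 1_1 (ECHS1 also without KO 1_2; adjusted p at most 0.166 for ACOX3 and 0.122 for ECHS1), and the line 2 calls without KO 2_1 or KO 2_2 (ECHS1 also without control 1; at most 0.138 and 0.156).

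Among PPAR targets, PDK4, the kinase that holds back glucose oxidation, fell in line 1 (-4.12, adjusted p = 0.00331), and there controls 1 and 2 were the lower pair, at 112 and 104 CPM, against 454 and 484 CPM in controls 3 and 4. PDK4 was called against each pair, at -2.72 (adjusted p = 1.89e-05) and -4.81 (adjusted p = 3.98e-06). CREB3L3, a liver transcription factor of fasting genes, fell in line 1 (-1.30, adjusted p = 0.00688) and rose in line 2 (0.99, adjusted p = 0.025). CIDEB, a droplet protein of hepatocytes, fell in both lines (-3.26 (adjusted p = 8.47e-05) and -0.98 (adjusted p = 0.0329)), and by more in line 1 (line 2 minus line 1, 2.28, adjusted p = 0.00106). The line 2 calls of CREB3L3 and CIDEB were lost against controls 3 and 4 alone (0.84 (adjusted p = 0.0961) and -0.82 (adjusted p = 0.102)) and without control 1, control 2, KO 2_1 or KO 2_2 (adjusted p at most 0.149 and 0.232), and the line 1 call of CREB3L3 without KO 1_1 or KO 1_2 (at most 0.0786). ACSL5, an acyl-CoA synthetase, was at 2.97, 4.79, 2.73 and 4.46 CPM in KO_RES, 12.1, 14.8, 3.73 and 11.4 CPM in KO and 27.6, 26.9, 32.3 and 50.04 CPM in control, and fell in pooled KO (-1.70, adjusted p = 0.0225) and in KO_RES against control (-3.20, adjusted p = 0.00157). The pooled KO call of ACSL5 was lost against each pair alone (-1.39 (adjusted p = 0.0869) against controls 1 and 2 and -1.97 (adjusted p = 0.0585) against controls 3 and 4) and without control 4, KO 1_1 or KO 2_2 (adjusted p at most 0.0556).

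APOB, the apolipoprotein that MTTP loads, gave the widest gap between the lines of any pathway gene named here. It was at 13638, 27661, 38.8 and 115 CPM in KO_RES, 10409, 21595, 20.2 and 47.8 CPM in KO and 6337, 5572, 4806 and 6893 CPM in control. Line 2 held far less than every control in both groups, and line 1 was above every control in both groups. APOB fell in KO line 2 (-7.44, SE 0.73, adjusted p = 0.000258) and differed between the lines (-8.88, SE 0.80, adjusted p = 0.000123). ELOVL4, an elongase of very long chains, was the 1 pathway gene called between KO_RES and KO within a line, at 2.03 and 1.87 CPM in KO_RES line 1 and 4.97 and 4.80 CPM in KO line 1 (-1.32, SE 0.22, adjusted p = 0.0475), a call lost without any 1 of these 4 libraries (adjusted p at most 0.437). It had fallen in KO line 1 against control (-2.14, adjusted p = 9.67e-05), where controls stood at 20.1, 23.8, 20.2 and 21.997 CPM.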

How the data were processed

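RNA was sequenced from libraries of a stranded mRNA kit, per the labels, and the authors deposited 1 table of raw read counts per gene and library, made with STAR 2.6.0b on GRCh37 per the submitters' processing notes. Trimming and read filters are not given in the sources used here. Column 4, the stranded counts, was used, since it held 19.8 to 21.1 times the total of the other strand, and lines of unassigned reads were left out. Members were matched through Ensembl identifiers and a reference table of symbols. The counts were fitted with edgeR 4.0.16 in R 4.3.3 after filterByExpr had removed low genes and TMM had scaled the libraries, and quasi-likelihood tests were run in a fit of 3 groups (19200 genes) and in a fit of 5 groups by line (20559 genes), with Benjamini-Hochberg adjustment over all genes tested. Both fits were tested on simulated data first. The members and the lists were chosen with earlier results of these data known. All members could be named, and each called in any comparison is described; other pathway genes were named only if called, with up to 4 per list and comparison by smallest adjusted p. Some pathway genes that this rule would name are not reported here. Alternatives were DESeq2 1.42.0, RLE scaling, no filter, unstranded counts, either pair of controls, the genotype field, libraries whose labels agree, only the groups compared, the mean of the lines, blocks and leaving out each library. Same-numbered KO_RES and KO libraries of a line deviated together from their group means (r = 0.778, 0.829, 0.849 and 0.767 over genes), where the highest r with another number or line was 0.693. These values hold the difference between the lines as well; in deviations from the line means, which do not, same-numbered libraries had r = 0.464 in line 1 and 0.642 in line 2. The numbers were therefore taken to pair the libraries, a check that rests on the data and not on a label.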

Additional observations from a re-analysis of the deposited data

Results flagged for a closer look

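The lines differed in 8 members, by the test of KO line 2 minus KO line 1 in the fit with each line as a group. On the log2 scale the differences were 3.10 for FABP1 and 0.60 for ELOVL6, and -2.40 for PPARGC1A, -2.17 for FADS2, -0.94 for ACSL3, -0.89 for PNPLA2, -0.88 for PPARG and -0.39 for ACADM. Each line rests on 2 KO libraries. The same order of the lines was seen in the KO_RES libraries of these 8 genes, which entered that test only through the shared estimate of the spread: FABP1 was at 8.47 and 18.9 CPM in KO_RES line 2 and 0.332 and 0.821 CPM in KO_RES line 1, and PPARGC1A was at 17.7 and 26.9 CPM in KO_RES line 2 and 103 and 136 CPM in KO_RES line 1. KO_RES cells are knockout cells of these lines with HKDC1 returned, so the shared order is no independent support for the differences.

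Single libraries stood apart from the others of their group in 3 of 120 groups of 4 libraries, judged by the gap to the nearest library as a share of the group's range (Dixon's test), a test that chance passes in about 1 in 20 groups. ETFDH was at 39.8 CPM in control 3, against 45.4 CPM in the nearest control (share 0.879). ACACB, the mitochondrial acetyl-CoA carboxylase that makes the malonyl-CoA that restrains CPT1A, was at 45.6 CPM in control 4, against 38.3 CPM in the nearest control (share 0.863). AGPAT2 was at 38.3 CPM in KO_RES 2_1, against 35.5 CPM in the nearest KO_RES library (share 0.842). None of these 3 genes was called in any of the 8 comparisons.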

How the results depend on the processing

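No called value changed sign under any alternative, and counts of members called moved as follows. For KO against control (4 members), 7 were called against controls 1 and 2 only, 1 against controls 3 and 4 only, 7 with groups by the genotype field, 0 with only libraries whose title and genotype field agree (edgeR, 2 libraries in each of KO and KO_RES), 10 with both lines averaged in the fit by line, and 1 to 4 without 1 library. The count was 1 without control 1, control 2, KO 1_1, KO 1_2 or KO 2_1 and 2 without KO 2_2. For KO_RES against control (3 members), DESeq2 called 5, controls 1 and 2 only gave 7, controls 3 and 4 only 1, a fit of only the groups compared 0, the agreeing libraries 0, both lines averaged 8, and leaving out 1 library 0 to 4, with 0 without KO_RES 1_1 or KO_RES 1_2 and 1 without control 2. For KO line 1 (11 members), controls 1 and 2 only gave 19, and leaving out 1 library 3 to 13, the lowest without KO 1_1. For KO line 2 (5 members), DESeq2 called 9, no filter on low counts 12, controls 1 and 2 only 13, controls 3 and 4 only 3, and leaving out 1 library 0 to 9, with 0 without KO 2_1 or KO 2_2. The difference between the lines (8 members) fell to 2 without any 1 KO library. KO_RES line 1 against KO line 1 had 2 without the filter, in place of 0. The cause was not tested, beyond fewer samples where libraries were left out. For KO_RES against KO the paired fit, with a replicate block of line and number, called 0 members, as did the fit without it, and changed no call of a member. CD36 did not pass the filter on low counts in the paired fit and was not tested there. Under every alternative run, the calls that held were those of FABP1, SCD and PPARGC1A in KO line 1 and of ACSL3 and PPARGC1A between the lines. At a common biological coefficient of variation of 36.2% in the 3-group fit, the simulation of KO against control, 4 libraries each, recovered 15 of 100 genes changed by 1 on the log2 scale and 93 of 100 changed by 2, and at 25.8% in the fit by line that of KO line 1 against control, 2 libraries against 4, recovered 27 and 99 of 100. These simulations gave all genes the same spread and held no difference between lines or pairs of controls. They do not give the recovery in the real libraries.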

Other observations

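Of 18 other genes of fatty acid synthesis, elongation and desaturation tested, 7 were called in KO line 1, 2 higher and 5 lower, beside 18.1% of all genes, with a median log2 fold change of -0.23, beside -0.02 over all genes. Between the lines 6 of the 18 were called, 3 higher in KO line 2, beside 6.26% of all genes, and 3 lower, beside 5.72%. ELOVL4 was at 2.03, 1.87, 11.4 and 15.8 CPM in KO_RES, 4.97, 4.80, 12.1 and 17.1 CPM in KO and 20.1, 23.8, 20.2 and 21.997 CPM in control, so both groups of line 1 lay below both groups of line 2 and all of them below control. ELOVL3, another elongase of very long chains, fell in KO line 1 (-1.07, SE 0.27, adjusted p = 0.022) and was higher in KO line 2 than in KO line 1 (1.65, SE 0.31, adjusted p = 0.00668). The line 1 call of ELOVL3 was lost against controls 1 and 2 alone (-0.86, adjusted p = 0.0577) and without KO 1_1 or KO 1_2 (adjusted p at most 0.205), and the line difference without KO 1_1 or KO 2_2 (at most 0.0778). SCD5, another stearoyl-CoA desaturase, was at 0.0799, 0, 0.385 and 0.476 CPM in KO and 1.02, 1.12, 0.540 and 0.886 CPM in control, a few counts per library in line 1, and was called lower there (-4.23, SE 0.76, adjusted p = 0.00412). Phytanoyl-CoA hydroxylase, PHYH, which opens the breakdown of branched chains in peroxisomes, was at 233, 343, 97.2 and 121 CPM in KO_RES, 199, 304, 110.3 and 148 CPM in KO and 102, 91.8, 122 and 126 CPM in control, rose in KO line 1 (1.18, SE 0.22, adjusted p = 0.00441) and was lower in KO line 2 than in KO line 1 (-0.96, SE 0.26, adjusted p = 0.0377). The line 1 call of PHYH was lost without KO 1_2 (adjusted p = 0.0771) and the line difference without KO 1_2, KO 2_1 or KO 2_2 (at most 0.265).

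G0S2, the inhibitor of the lipase PNPLA2, was at 0.137, 0.142, 0.0748 and 0.340 CPM in KO_RES, 0.559, 0.702, 0.165 and 0.245 CPM in KO and 0.161, 0.0876, 0.101 and 0.177 CPM in control, and rose in KO line 1 (2.24, SE 0.50, adjusted p = 0.0115), at levels near the floor of 3 counts in several libraries, a call lost without KO 1_1 or KO 1_2 (adjusted p at most 0.0864). ANGPTL4, a secreted inhibitor of lipoprotein lipase and a PPAR target, was at 18.3, 19.3, 15.9 and 14.7 CPM in KO_RES, 27.96, 30.1, 17.8 and 26.01 CPM in KO and 60.5, 64.7, 31.3 and 36.1 CPM in control, and fell in pooled KO (-0.92, SE 0.24, adjusted p = 0.0447) and in KO_RES against control (-1.50, SE 0.24, adjusted p = 0.00649). Against controls 3 and 4 alone the KO_RES call of ANGPTL4 held (-0.98, adjusted p = 0.0486) and the KO call did not (-0.41, adjusted p = 0.421), and the KO call was also lost without control 1, control 2 or any 1 KO library (at most 0.134). PLIN1, the droplet coat protein typical of adipocytes, was at 1.03, 0.878, 0.411 and 0.946 CPM in KO_RES and 0.341, 0.219, 0.169 and 0.230 CPM in control and was called higher in KO_RES (1.76, SE 0.41, adjusted p = 0.0309), a call lost against each pair of controls alone (1.52 (adjusted p = 0.142) and 2.02 (adjusted p = 0.117)) and without any 1 library other than KO_RES 2_1 (at most 0.0985). The acyl-CoA thioesterase ACOT12 was at 6.29, 13.1, 5.89 and 6.09 CPM in KO_RES, 3.85, 6.32, 1.87 and 4.21 CPM in KO and 28.2, 31.002, 5.73 and 9.23 CPM in control and fell in pooled KO (-2.19, SE 0.55, adjusted p = 0.0385), while controls 1 and 2 were again the higher pair, as for the hepatocyte markers; their part in this result was not tested. Against controls 3 and 4 alone ACOT12 was not called (-0.88, adjusted p = 0.425), nor without control 1, control 2 or any 1 KO library (adjusted p at most 0.114).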
